A study of Homo sapiens with 10 samples.

Results

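The genes described here are targets of the transcription factor p53, measured in human leukaemia cells. The sensitive group is a line of chronic myeloid leukaemia (CML), which is driven by the BCR-ABL kinase, and the resistant group is its subline that withstands cyclophosphamide, a drug whose activated forms alkylate and crosslink DNA. The members were all probe sets that the platform annotation assigns to 1 of 9 listed genes: CDKN1A, MDM2, GDF15, CCNG1, SESN1, BTG2, GADD45A, PPM1D and TP53I3. They came to 10 of 12558 probe sets and covered 7 of the 9 genes, 4 of the probe sets belonging to MDM2 and 1 to each of the others. Signals of SESN1 and BTG2 were not analysed here. The 5 arrays of the sensitive line and the 5 of the resistant subline each carried RNA of cells grown in culture medium, hybridised in 1 colour to oligonucleotide arrays. The labels give neither the name of the line, nor the way resistance was raised, nor any drug given before harvest. They state no separate cultures, so p-values measure the spread between these arrays, which may be technical.

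p53 is a transcription factor that is held low in resting cells, since MDM2, one of its own targets, marks it for breakdown. DNA damage stabilises it, and it then induces genes that stop the cell cycle, repair DNA, secrete stress signals, start apoptosis or end its own activity. DNA crosslinks of the kind that cyclophosphamide makes are a classical trigger. Several of its targets also respond to other stresses without p53, among them GDF15 and GADD45A, which are known targets of the amino acid and unfolded protein response as well.

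Promoters of 8 of the 9 genes were found among RefSeq windows of GRCh38.p14. Those of MDM2, CCNG1 and GDF15 are shown because MDM2 carries the textbook p53 response element and because CCNG1 and GDF15 are the members whose signal rose. Each line gives the 250 bases before a transcription start, 5′ to 3′ on the plus strand. Capitals mark stretches of 20 bases that match the p53 response element, 2 adjoining decamers, with at most 3 mismatches. The MDM2 window, at chr12:68808767-68809016, precedes the inner start of the gene, which lies in its first intron. The CCNG1 window lies at chr5:163437321-163437570 and the GDF15 window at chr19:18385908-18386157.
MDM2: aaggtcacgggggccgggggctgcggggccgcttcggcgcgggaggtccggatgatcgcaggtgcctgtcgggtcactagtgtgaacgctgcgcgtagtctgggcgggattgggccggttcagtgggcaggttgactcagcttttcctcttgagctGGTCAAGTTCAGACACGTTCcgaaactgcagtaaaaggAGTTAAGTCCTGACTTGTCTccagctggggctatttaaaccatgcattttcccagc
CCNG1: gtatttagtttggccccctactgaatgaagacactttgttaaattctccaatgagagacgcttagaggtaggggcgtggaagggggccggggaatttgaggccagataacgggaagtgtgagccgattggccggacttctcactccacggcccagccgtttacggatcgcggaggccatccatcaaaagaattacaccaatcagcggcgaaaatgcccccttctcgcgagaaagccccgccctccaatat
GDF15: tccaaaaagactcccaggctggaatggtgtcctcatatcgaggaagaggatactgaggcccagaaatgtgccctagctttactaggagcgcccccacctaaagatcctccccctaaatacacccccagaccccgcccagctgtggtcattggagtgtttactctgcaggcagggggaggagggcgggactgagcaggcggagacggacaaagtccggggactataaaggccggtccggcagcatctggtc

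The MDM2 window held 2 such stretches, the better one with 2 mismatches and starting 94 bases before the start. The 2 windows before the outer starts of MDM2 held none, and their best stretches had 5 mismatches. Of the other members with a window, SESN1 had 1 stretch with 3 mismatches, in 1 of its 3 windows, and that stretch held a decamer without mismatches. Among all 35116 promoter windows of 250 bases, 0.561% held a stretch with at most 2 mismatches and 4.36% one with at most 3. The best stretch in the CCNG1 window had 6 mismatches and that in the GDF15 window 5, and neither window held a single decamer of 10 bases without mismatches, which 5.57% of all windows did. The element is its own reverse complement, so 1 search covers both strands. These matches describe letters in short windows and say nothing of binding, and the known p53 sites of several targets lie outside them.

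In resistant cells 2 of the 7 measured genes rose, GDF15 and CCNG1, and none fell past the threshold. Before adjustment, 4 of the 7 were higher and 1 lower at p under 0.05, where 11% of all genes were higher and 8.44% lower. Over all 8226 genes, each represented by its brightest probe set, 4.94% were called higher and 3.49% lower, which together is 8.42%. A gene was called at a Benjamini-Hochberg adjusted p under 0.05 in limma, adjusted over all 12558 probe sets, of which 7.44% were called. The median log2 difference of the 7 genes was 0.59, beside 0.03 over all genes. All log2 differences are resistant minus sensitive on the scale log2(signal + 115.1), which understates changes of dim probe sets. The 2 best-known targets, CDKN1A and MDM2, were at or near background on these arrays. Background was read from 32 control probe sets that match no human gene, whose 95th percentile on each array served as its limit and lay between 320 and 740 signal units. In such bulk RNA a lower signal from fewer expressing cells and from less RNA per cell cannot be told apart.

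**Figure D1:**
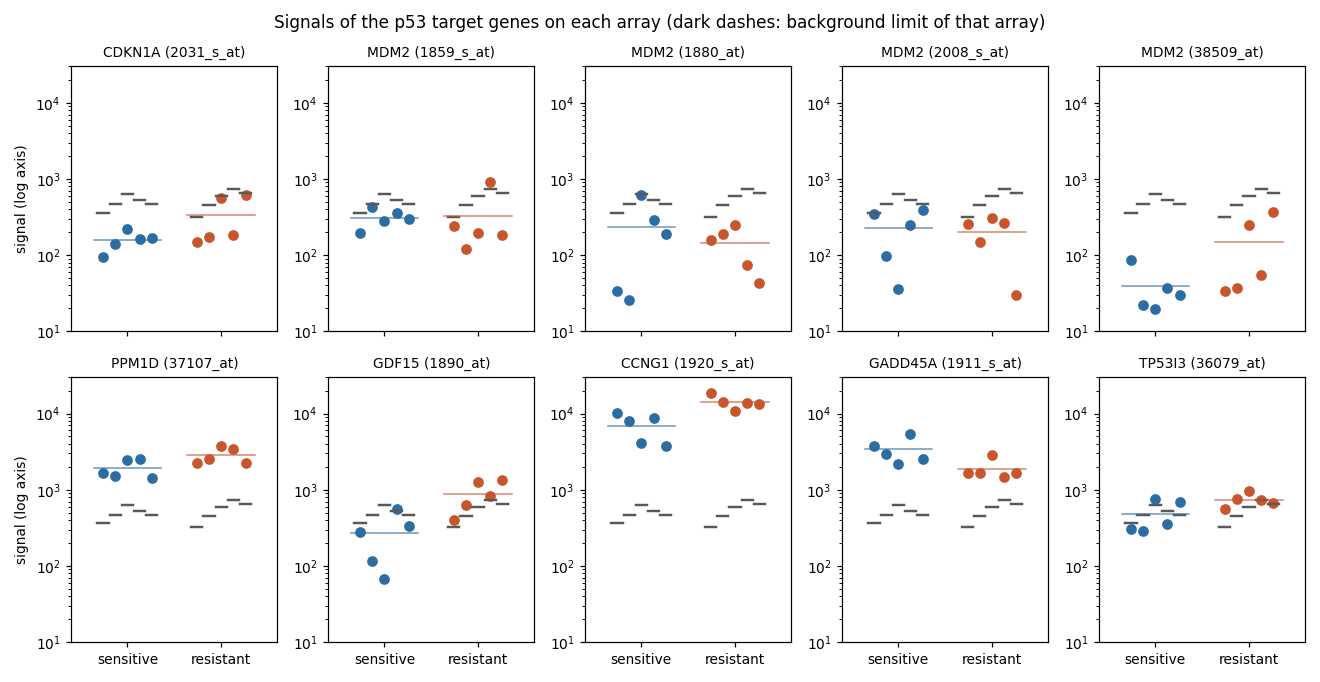
Signal of each p53 target probe set (log axis) on the 5 sensitive (blue) and 5 resistant (orange) arrays, in replicate order; thin lines are group means and dark dashes the background limit of each array. CCNG1 stands above the limit on all 10 arrays with its groups apart, whereas CDKN1A lies under it on all 10.

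GDF15 encodes a secreted stress cytokine of the TGF-beta superfamily. Its signal was 282, 117, 67.1, 557 and 333 on sensitive arrays 1 to 5, and only the value of array 4 was above that array's limit. On resistant arrays 1 to 5 it was 400, 625, 1270, 834 and 1325, each above the limit of its own array. The groups overlapped, since sensitive array 4 was higher than resistant array 1. The mean rose from 271 ± 194 to 891 ± 402 (SD, n = 5 each). The log2 difference was 1.43 (SE 0.39, 95% interval 0.58 to 2.28, adjusted p = 0.0448, limma). By a two-sided exact permutation test the unadjusted p was 0.0159, where 0.00794 is the smallest that 5 against 5 arrays can give. With 1 array left out, the call held without sensitive replicate 4 or resistant replicate 1 and was lost without any other single array, with an adjusted p of up to 0.115 (without sensitive replicate 2) and log2 differences of 1.20 to 1.67.

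CCNG1 encodes cyclin G1, a p53 target that recruits a phosphatase to MDM2. Sensitive arrays 1 to 5 gave signals of 10014, 8055, 4130, 8829 and 3761. Resistant arrays gave 18509, 14007, 10670, 13646 and 13381. Every resistant array was above every sensitive array, although the nearest values, 10014 and 10670, lay close together. Resistant arrays stood wholly above sensitive arrays in 4.94% of all probe sets, and CCNG1 was the 1 member probe set of 10 whose groups did not overlap in either direction, as in 8.5% of all probe sets. The mean went from 6958 ± 2840 to 14043 ± 2825, a log2 difference of 1.09 (SE 0.30, 95% interval 0.44 to 1.73, adjusted p = 0.0452, limma). The call held without sensitive replicate 1 or 4 and was lost without any other single array (adjusted p of up to 0.107, without resistant replicate 1). It was also lost with arrays scaled to a common median (log2 difference 0.96, adjusted p = 0.134). The log2 difference stayed between 0.90 and 1.24 when 1 array was left out. With a smaller pseudocount, at the 5th percentile of signals, neither gene passed (adjusted p = 0.0718 for GDF15 and 0.0665 for CCNG1, limma).

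Neither of the members that halt the cell cycle directly, CDKN1A and GADD45A, was called. CDKN1A encodes p21, the inhibitor of cyclin-dependent kinases through which p53 arrests cells in G1. Its signal was 94.2, 141, 219, 164 and 166 on sensitive arrays and 149, 172, 565, 185 and 622 on resistant arrays. None of the 10 values exceeded the limit of its array, so neither a level nor a fold is given. Resistant arrays 3 and 5 were the highest, with limits of 589 and 659. The gene was not called (adjusted p = 0.359, limma).

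GADD45A encodes a stress protein that binds PCNA, p21 and the kinase CDK1 and acts at the G2 checkpoint. It was the 1 member with an unadjusted p under 0.05 in the lower direction. Sensitive arrays gave 3799, 2973, 2178, 5463 and 2519, and resistant arrays 1646, 1641, 2896, 1453 and 1668, all above the limit. The groups overlapped through resistant array 3 alone, and the other 4 resistant arrays were below every sensitive array. The mean was 3387 ± 1310 and 1861 ± 585 (SD, n = 5; log2 difference -0.79, SE 0.27, 95% interval -1.38 to -0.20, adjusted p = 0.118, limma). No alternative brought it past the threshold, the lowest adjusted p among 20 being 0.0512.

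The members MDM2 and PPM1D, which limit p53, showed no called change. MDM2, the ubiquitin ligase of p53, has 4 probe sets. In the brightest of them sensitive arrays gave 198, 426, 277, 360 and 297, and resistant arrays 241, 122, 195, 909 and 181. Only the 909 of resistant array 4 exceeded its array's limit. In the other 3 probe sets none of the 30 values did, the largest being 623 on sensitive array 3, under a limit of 640. None of the 4 was called, with adjusted p-values of 0.901, 0.879, 0.973 and 0.387 in limma, and the sign of the fitted difference turned in 3 of them under other settings or arrays. MDM2 transcripts were thus not detectable above background on most arrays, and a change in them could not be measured. The related gene MDM4, which binds and inhibits p53 without ubiquitin ligase activity of its own, was above the limit on all 10 arrays. It was 1080 ± 510 and 1167 ± 666 (log2 difference 0.03, 95% interval -0.81 to 0.88, adjusted p = 0.985), and its sign turned under 7 of 20 alternatives, median scaling and quantile normalization among them.

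PPM1D encodes WIP1, a phosphatase that p53 induces and that switches the damage signal off again. Sensitive arrays gave 1636, 1521, 2472, 2520 and 1426, and resistant arrays 2226, 2516, 3782, 3406 and 2230. All were above the limit, and the groups overlapped in the range from 2226 to 2520. The log2 difference was 0.54 (SE 0.23, 95% interval 0.03 to 1.06, adjusted p = 0.241, limma), which did not pass.

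TP53I3 encodes a quinone oxidoreductase that p53 induces on the way to apoptosis. Sensitive arrays gave 304, 289, 747, 350 and 682, of which 2 were above the limit. Resistant arrays gave 565, 758, 960, 738 and 664, of which 4 were above it. The ranges overlapped from 565 to 747, with sensitive arrays 3 and 5 among the resistant values. The log2 difference was 0.59 (SE 0.26, 95% interval 0.03 to 1.15, adjusted p = 0.242, limma). PPM1D and TP53I3 were called under none of the 20 alternatives each.

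**Figure D2:**
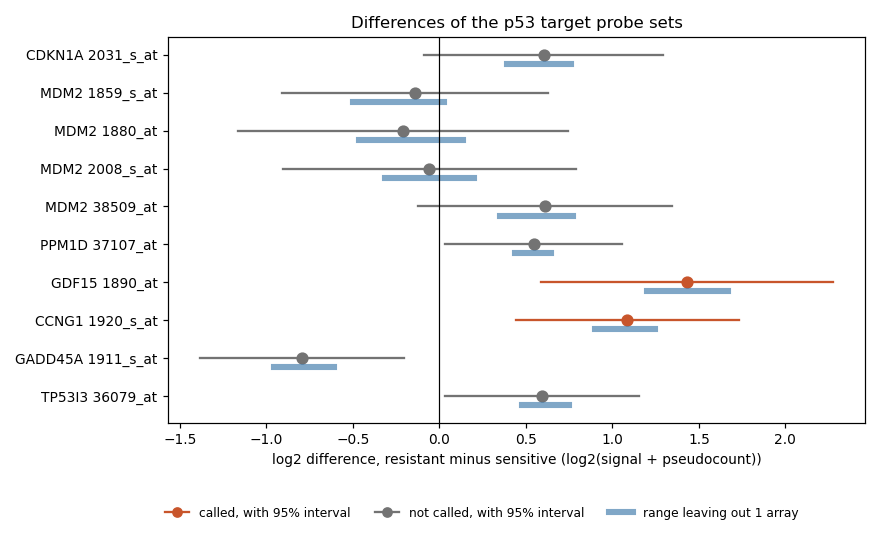
Log2 difference, resistant minus sensitive, of the 10 p53 target probe sets with its 95% interval (points and thin lines; orange where called, grey where not) and the range over the 10 fits that leave out 1 array (blue bars). GDF15 at 1.43 and CCNG1 at 1.09 are the called ones, GADD45A at -0.79 points the other way, and 3 MDM2 probe sets lie around 0; the CDKN1A and MDM2 points compare signals at background.

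Within the groups, GADD45A peaked on the same arrays as some stress genes. GADD45A was highest on sensitive array 4 (5463) among sensitive arrays and on resistant array 3 (2896) among resistant arrays. The same 2 arrays had the highest signals of their group for DDIT3, which encodes the stress transcription factor CHOP, and for CTH, an enzyme of cysteine synthesis. These genes were looked at on the arrays after the values of the members were known. DDIT3 was 1999, 1218, 1502, 5571 and 1446 on sensitive arrays and 2803, 2712, 13513, 3778 and 3909 on resistant arrays. CTH was 2717 on sensitive array 4, with 831 to 1328 on the others, and 5501 on resistant array 3, with 1871 to 2866 on the others. GDF15 was likewise highest on sensitive array 4 of its group, and on resistant arrays it was highest on arrays 5 and 3. ATF3, a stress-induced transcription factor, was 2467 on resistant array 3 and 196 to 728 on the other resistant arrays. Its signals were 444, 28.3, 181, 410 and 81.2 on sensitive arrays. ATF3 was above the limit on only 1 sensitive array and on 3 resistant arrays. Other genes of this response were mixed. ASNS (23218), ATF4 (57080) and CEBPB (14943) were also highest on sensitive array 4 of their group. PHGDH (30524) and SLC7A11, a cystine transporter, were highest on sensitive array 3 of their group. The brighter probe set of DDIT4, an inhibitor of mTOR signalling, was highest on sensitive array 1 (21960), as were VLDLR and NUPR1. Among resistant arrays, array 3 was the highest for ATF4 (46292), CEBPB (15606), PHGDH (56262), SLC7A11 (1902), this DDIT4 probe set (29720) and VLDLR (3078). ASNS was highest on resistant array 5 and NUPR1 on resistant array 4. NUPR1 was above the limit on only 1 sensitive array and 1 resistant array. The group differences were also computed without sensitive array 4 and resistant array 3. These 2 arrays were chosen for their DDIT3 signal and are also the highest of their group for GADD45A, so leaving them out narrows its spread by choice. GDF15 then had a log2 difference of 1.53 (adjusted p = 0.0490, limma), CCNG1 1.29 (adjusted p = 0.0511) and GADD45A -0.77 (adjusted p = 0.0695). Sensitive array 4 also had the highest GDF15 signal of its group, and resistant array 3 the lowest CCNG1 signal of its group. The values of GDF15 and CCNG1 without these arrays are therefore not independent of the choice either.

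**Figure D3:**
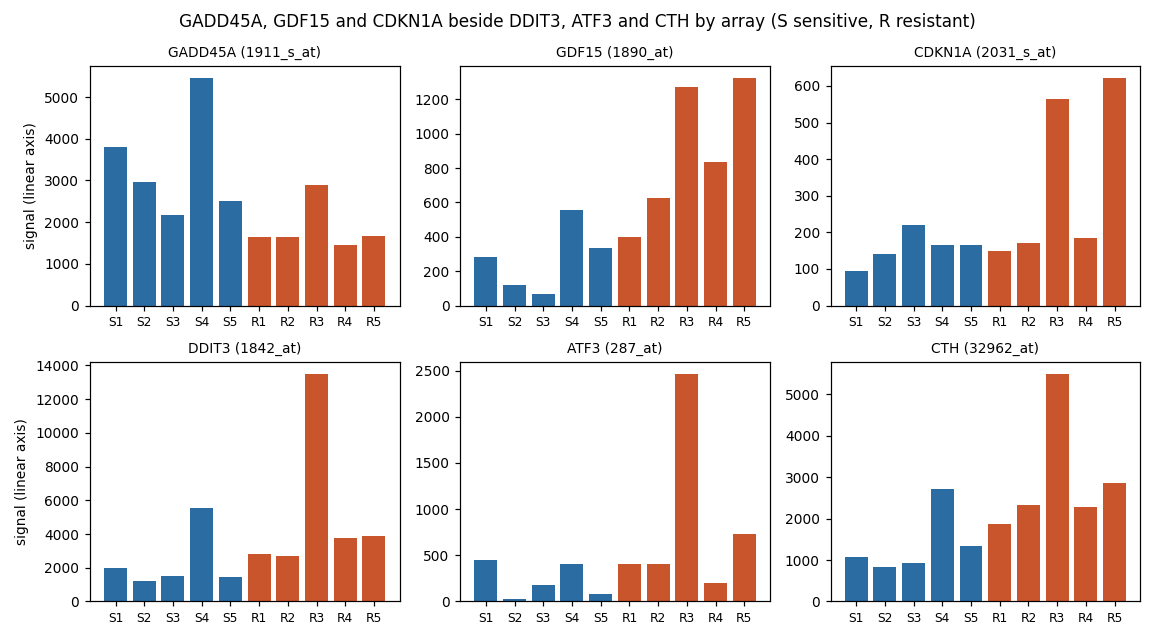
Signals (linear axis) on sensitive arrays S1 to S5 (blue) and resistant arrays R1 to R5 (orange) of 3 member genes and 3 stress genes, of which ATF3 is also a listed p53 target. S4 is the highest sensitive array for GADD45A, GDF15, DDIT3 and CTH, and R3 the highest resistant array for GADD45A, DDIT3, ATF3 and CTH.

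DDIT3, ATF3 and CTH belong to a list of 15 genes of the ATF4 pathway, the response to amino acid shortage and unfolded proteins, of which 11 were measured. None was called by limma, whose unadjusted p was under 0.05 for 4 higher and 0 lower genes of the 11 (11% and 8.44% of all genes), and the median log2 difference was 0.21. PHGDH, the first enzyme of serine synthesis, came nearest, with 22424 ± 5125 and 38917 ± 10464 (log2 difference 0.78, adjusted p = 0.0595), and passed under 7 of its 20 alternatives. Over all arrays the log2 difference of DDIT3 was 1.09 (adjusted p = 0.258, limma), and 0.76 (adjusted p = 0.386) in its other probe set. Without sensitive array 4 and resistant array 3 the difference in the brighter probe set was 1.05 (adjusted p = 0.0230, limma). That lower adjusted p carries no weight, since leaving out the highest DDIT3 signal of each group narrows the spread by choice.

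None of the other known p53 targets measured was called higher by limma. Of 50 such genes listed, 31 were measured and 1 was called lower, while unadjusted p-values were under 0.05 for 3 higher and 5 lower genes of the 31 (11% and 8.44% of all genes), and the median log2 difference was 0.04. ATF3 is on this list as well as on that of the ATF4 pathway and counts among the higher genes of both. The gene that fell was CASP1, the inflammasome protease. It was 1126 ± 344 in sensitive arrays, all 5 above the limit, and 82.6 ± 93.5 in resistant arrays, none above it, so it was at least 1.85-fold lower (adjusted p = 0.000106, limma). Its other probe set, above the limit on 2 sensitive arrays and 0 resistant arrays, was called lower as well.

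Most kinases and cofactors that act on p53 were not called. Of 25 listed, 20 were measured, 0 rose and 2 fell, where 4.94% and 3.49% of all genes did, and the median log2 difference was 0.00. Unadjusted p-values in limma were under 0.05 for 2 higher and 4 lower genes of the 20 (11% and 8.44% of all genes). PRKDC, the catalytic subunit of the DNA-dependent protein kinase, fell from 24595 ± 2483 to 12582 ± 1437 in its brightest probe set (log2 difference -0.96, adjusted p = 0.00291, limma). Another of its probe sets was called lower as well (log2 difference -1.20, adjusted p = 0.0138). A further one was not called (log2 difference -0.82, adjusted p = 0.180). TP53BP2, whose product ASPP2 steers p53 towards apoptotic genes, fell from 1552 ± 255 to 884 ± 199 (log2 difference -0.75, adjusted p = 0.0360, limma). The call of TP53BP2 was lost under 11 of 20 alternatives, among them without any 1 of sensitive replicates 1, 2 and 4 and resistant replicates 2, 3, 4 and 5 (adjusted p of up to 0.0995), and its other probe set was not called (log2 difference -0.58, adjusted p = 0.160).

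The genes downstream of p21 were measured in full. p21 binds cyclins with their kinases and, through the DREAM complex, lowers genes of replication and mitosis. Of 30 such lowered genes, 0 rose and 1 fell, where 4.94% and 3.49% of all genes did, and the median log2 difference was 0.01. The gene that fell was MCM4, a subunit of the replicative helicase (15929 ± 3396 and 6609 ± 1421, log2 difference -1.25, adjusted p = 0.00250, limma). Of 11 cyclins and kinases bound by p21, 1 rose and 1 fell, beside the same shares of all genes. CCND2, a G1 cyclin, rose in its brightest probe set from 260 ± 124, under the limit on all sensitive arrays, to 3055 ± 604. That was at least 5.19-fold in this probe set (adjusted p = 1.92e-05, limma). Its other probe set, above the limit on 2 sensitive and 5 resistant arrays, rose less, from 413 ± 189 to 1484 ± 461 (log2 difference 1.63, adjusted p = 0.00671, limma). CCNE2, a cyclin of S phase entry, fell from 7276 ± 2835 to 2523 ± 842 (log2 difference -1.46, adjusted p = 0.00986). PRKDC, MCM4 and CCNE2 lie on chromosome 8, where 69 of 298 genes (23.2%) were called lower, against 218 of 7920 (2.75%) on other chromosomes. None of the 7 measured members lies on chromosome 8.

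Paralogs of the members gave 1 rise and 1 fall among 17 measured of 19 (4.94% and 3.49% of all genes), with a median log2 difference of 0.02. CDKN1C, which encodes p57, an inhibitor of the same family as p21 that is not among the listed p53 targets, rose in all of its 3 probe sets. In the brightest, sensitive arrays gave 459, 64, 462, 243 and 916, of which 2 were above the limit. Resistant arrays gave 2245, 2662, 1281, 3181 and 1887, all 5 above it. The groups stood apart (log2 difference 2.29, SE 0.41, adjusted p = 0.00432, limma), and the other 2 probe sets, each above the limit on 0 sensitive and 4 resistant arrays, were at least 1.46-fold and 1.33-fold higher. It was called under all of its 20 alternatives. INHBA, a subunit of activins, which belong to the same superfamily as GDF15, was called lower in its brightest probe set, where no value exceeded the limit in either group.

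**Figure D4:**
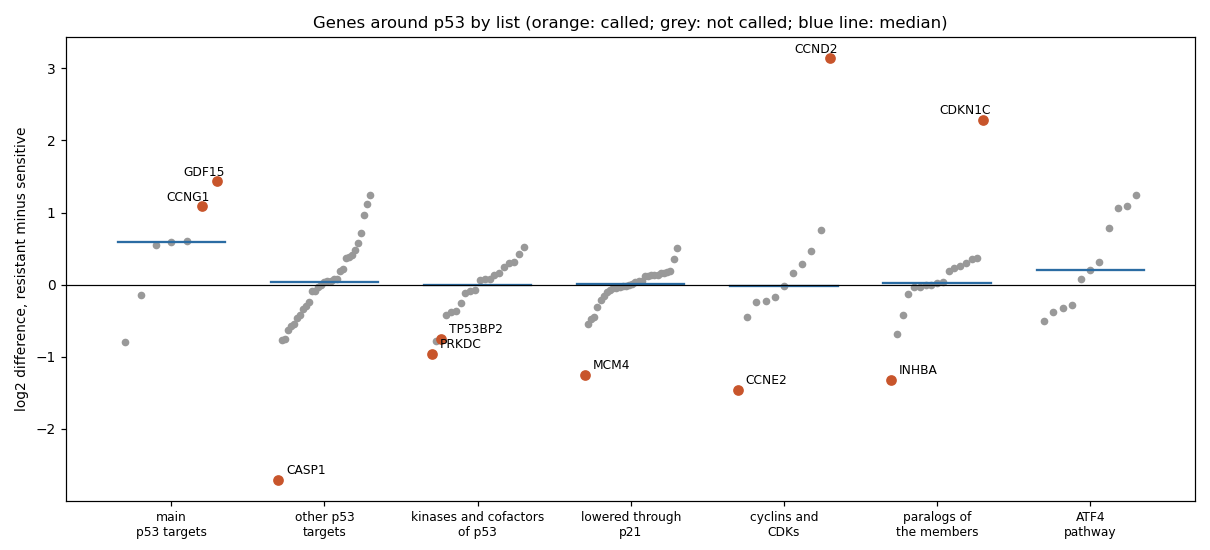
Log2 difference, resistant minus sensitive, of every measured gene in 7 lists around p53, 1 point per gene by its brightest probe set (orange called, grey not called, blue line the list's median). GDF15 and CCNG1 are the called p53 targets above 0, CASP1 lies at -2.70, and the largest rises are CCND2 at 3.14 and CDKN1C at 2.29.

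The arrays were alike in coverage, with 51.0% to 61.3% of probe sets above the limit. Blood cell markers were present: all of 8 measured passed the limit on 3 or more arrays of a group, with summed signals of 78303 to 105161 in sensitive and 78288 to 100051 in resistant arrays. Among them LAPTM5 rose, CORO1A and LCP1 fell (log2 differences 1.11, -0.99 and -0.98), and the call of LCP1 was lost under 11 of 20 alternatives (adjusted p of up to 0.0941). SPI1, above the limit on 5 sensitive and 0 resistant arrays, was at least 1.23-fold lower but was not called (adjusted p = 0.0528, limma). Of 4 measured fibroblast markers 1, LUM, passed the limit on 3 or more arrays of a group. It fell from 1302 ± 559 to 237 ± 173 (adjusted p = 0.00316, limma), and the summed signals of these markers were 1104 to 2850 and 432 to 1027. Of 5 epithelial markers 2 did, KRT8 and CDH1, with sums of 3880 to 7635 and 3524 to 5965, and none was called (0 at an unadjusted p under 0.05 in limma). The part of such differences in the values of the p53 targets was not tested.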

How the data were processed

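Expression was measured on 10 arrays, 5 per group, grouped by sample title. The deposited values are an intensity (signal) per probe set on a linear scale; the submitters' processing notes name MAS5, and version and settings: not given in the sources used here. All arrays of the authors' table share a 2% trimmed mean of 2501.33 to 2501.51. After 67 control probe sets were left out, log2(signal + 115.1), the pseudocount being the 20th percentile, was fitted with lmFit and eBayes of limma 3.58.1 (R 4.3.3) on group alone, with Benjamini-Hochberg adjustment over 12558 probe sets. Names came from the platform annotation, updated by Entrez identifier to GRCh38.p14 (1 symbol for 10943 probe sets, several for 545, none for 1070). The fit was tested on simulated data. Members and lists were chosen with earlier results of these data known. Text names all members, MDM4, each list's called genes or, with none, its gene of lowest p. Markers go by ranges. Genes beyond this rule were chosen after their values were seen (DDIT3, ATF3, CTH, DDIT4, SLC7A11, ASNS, ATF4, CEBPB, VLDLR, NUPR1 and named markers). Bounds ("at least") set the bright group's mean log2 signal against the dim group's, with values under the limit raised to it. Alternatives varied pseudocount, scaling, filter, variance prior, replicate block, probe set rule, test and arrays. The number of arrays limits precision.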

Additional observations from a re-analysis of the deposited data

Results flagged for a closer look

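Among 22 groups of 5 arrays (11 probe sets of the members and MDM4), 2 held an array whose gap to the rest was wide for the group's range on the log2 scale, and chance gives about 1 in 20. GADD45A was 2896 on resistant array 3, above the other resistant arrays. The brightest MDM2 probe set was 909 on resistant array 4, the 1 value of MDM2 above an array's limit.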

How the results depend on the processing

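Of the 7 measured targets, 2 were called. The count was 0 with the pseudocount at the 5th percentile, by the exact permutation test (lowest adjusted p over all probe sets 0.0934) and without resistant arrays 3 and 5, and 1 with arrays scaled to a common median, with a replicate block and without sensitive array 4 and resistant array 3. Leaving out 1 array gave 0 to 2 target genes. It was 2 under the other alternatives. Over the wider lists 8 of 117 genes were called, where 693 of all 8226 genes (8.42%) were, and 7 to 10 with 1 array left out. The list count was 13 (of 102) among probe sets above the median signal, where 1157 of 6716 probe sets were called. With an intensity trend it was 14, where 1151 of 12558 probe sets were called. Of all probe sets 934 were called, 691 to 860 with 1 array left out, 794 with the replicate block and 601 without resistant arrays 3 and 5. Both exclusions of 2 arrays were chosen after seeing the data. Resistant arrays 3 and 5 were chosen for high GDF15 and CDKN1A, so lower values without them follow from the choice. Sensitive array 4 and resistant array 3 were chosen for high DDIT3, so its lower adjusted p without them follows from the choice. GDF15 and CCNG1 kept their sign throughout (lowest log2 differences 0.72 and 0.90). Where not called, near-zero differences changed sign: the brightest MDM2 probe set to 0.051 (mean of probe sets) and 0.077 and another to 0.12 (both without resistant arrays 3 and 5), and MDM4 to -0.092 (median scaling), -0.038 (quantile) and -0.29 (without resistant arrays 3 and 5); with 1 array left out these reached -0.50 to 0.029, -0.31 to 0.20 and -0.23 to 0.33, and another MDM2 probe set -0.46 to 0.13. The causes were not tested. Deviations of same-numbered arrays correlated at r 0.00869 to 0.123, over 0.1 for 1 of 5 numbers, and 3 of 5 sensitive arrays matched their own number best, a hint of pairing short of the criterion that every r exceed 0.1. With the replicate block GDF15 had an adjusted p of 0.0774. The median over all probe sets was 0.03, and -0.07 with median scaling. CDKN1A and MDM2 lay too near background for a change to be measured.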
